A study of Mus musculus with 9 samples.

Results

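The genes described here are the immunoglobulin heavy chain and lambda light chain genes whose RNA was listed in mouse kidney. They were taken by name from the deposited young against old table as every row whose symbol starts with Igh or Igl and names an immunoglobulin segment or constant gene. This gave 31 of the 389 genes of that table, namely 23 heavy chain variable genes, 5 heavy chain constant genes and 3 lambda genes. The table holds only genes that the authors had called between young and old mice, so the age difference of these genes chose them and is given below as a description with no test. The deposited 3HB against old table lists 113 genes, and 0 of them are heavy or lambda immunoglobulin genes.

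The samples were kidneys of male ICR mice, an outbred stock, in 3 groups of 3 animals. Young mice were 2 months old and old mice were 20 months old. The third group, called 3HB here, was also 20 months old and had been given the sodium salt of 3-hydroxybutyrate, a ketone body, dissolved in its water at 1 g/L, starting at 11 months. The labels name no engineered allele, and each library came from whole tissue, in which fewer cells of a type and less RNA per cell cannot be told apart.

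An antibody is built from heavy and light chains. Each heavy chain joins a variable segment, which helps to form the antigen-binding site, to a constant region that sets the isotype (IgM, IgG, IgA and others). The light chain is either kappa or lambda, and in mice most antibodies carry kappa. These genes are rearranged and transcribed in B cells and, at very high levels, in plasma cells, the antibody-secreting cells that can lodge in tissues for long periods. The set of variable genes in use therefore reflects which B cell and plasma cell clones are present.

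All members lie on the minus strand of the GRCm38 mouse genome. The 5 constant genes span chr12:113254830-113422730, the 23 heavy variable genes span chr12:113588267-115953005, and the 3 lambda genes span chr16:19061618-19200351. The GENCODE annotation of that build (release 21) holds 185 heavy variable genes. The members comprised 10 of 93 genes of variable family 1, 4 of 11 of family 2, 1 of 8 of family 3, 4 of 22 of family 5, 2 of 4 of family 7 and 2 of 4 of family 14. Ighd and Ighe, which encode the constant regions of IgD and IgE, and Ighg3, Iglc3, Iglc4, Iglv2 and Iglv3 were not among the rows, so their levels were not analysed here.

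Heavy variable genes are near copies of each other, which bears on how their reads can be assigned. For 14 of the 23 members, another annotated heavy variable gene was at least 95% identical across the variable exon, and the closest copy of each member ranged from 86.2% to 98.0% identity. The closest annotated copy of Ighv2-9, Ighv2-6-8 at 95.4% identity, was not among the rows. The pair of members Ighv2-9 and Ighv2-9-1 is shown first. Ighv2-9 was the member with the clearest separation of 3HB from old mice, and Ighv2-9-1 had none. The first 300 bases of the exons, at chr12:113879100-113879399 and chr12:113769854-113770153, are given 5′ to 3′ along the transcript and are 94.7% identical. Capitals mark the 16 bases at which the pair differs.
Ighv2-9: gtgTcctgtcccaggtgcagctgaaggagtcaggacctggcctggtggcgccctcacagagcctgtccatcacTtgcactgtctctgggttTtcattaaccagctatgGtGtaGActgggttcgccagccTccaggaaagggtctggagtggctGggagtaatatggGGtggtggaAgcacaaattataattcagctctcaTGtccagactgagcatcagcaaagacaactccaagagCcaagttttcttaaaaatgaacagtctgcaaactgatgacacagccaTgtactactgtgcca
Ighv2-9-1: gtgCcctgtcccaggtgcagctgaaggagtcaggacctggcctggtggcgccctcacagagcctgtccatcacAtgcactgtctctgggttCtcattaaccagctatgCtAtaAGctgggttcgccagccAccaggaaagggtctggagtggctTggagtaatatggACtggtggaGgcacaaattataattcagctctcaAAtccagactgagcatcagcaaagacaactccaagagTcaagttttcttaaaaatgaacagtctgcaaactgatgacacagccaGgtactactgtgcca

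Ighv14-3 (exon bases at chr12:114059850-114060149) had the highest mean of all heavy variable members and led the variable genes in 4 of the 9 mice. It is shown beside the other family 14 member, Ighv14-1, at chr12:113931958-113932257. The first 300 exon bases are 96.3% identical, and capitals mark the 11 that differ.
Ighv14-3: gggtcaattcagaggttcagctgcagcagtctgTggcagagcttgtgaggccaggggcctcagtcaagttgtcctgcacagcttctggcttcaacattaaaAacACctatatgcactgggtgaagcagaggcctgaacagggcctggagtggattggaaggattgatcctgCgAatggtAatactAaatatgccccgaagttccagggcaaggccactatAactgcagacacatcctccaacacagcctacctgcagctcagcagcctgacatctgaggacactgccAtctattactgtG
Ighv14-1: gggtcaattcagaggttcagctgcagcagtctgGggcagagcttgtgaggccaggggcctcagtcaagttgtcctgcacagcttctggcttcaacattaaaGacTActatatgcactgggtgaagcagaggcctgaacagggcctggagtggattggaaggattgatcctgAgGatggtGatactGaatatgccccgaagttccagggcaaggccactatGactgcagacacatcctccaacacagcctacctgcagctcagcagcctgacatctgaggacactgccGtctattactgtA

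Of the 24 variable members (23 heavy and Iglv1), 23 had an open frame through their annotated transcripts. These included Ighv7-3, which GENCODE annotates as a gene and RefSeq as a pseudogene. The member without an open frame was Ighv1-14, which GENCODE annotates as a pseudogene and RefSeq as a variable segment. Ighv1-14 was among the most abundant variable genes in old mice and 3HB mice. Its leader exon in the reference genome, which comes from the C57BL/6J strain, is printed from the first ATG at chr12:114646960-114647005, with the first in-frame stop in capitals as codon 5.
Ighv1-14: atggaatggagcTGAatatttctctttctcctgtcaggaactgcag
ICR mice need not carry the same allele at this gene, and the reads behind its values were not analysed here.

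The deposited values are normalized abundances whose unit (TPM or FPKM) the sources used here do not name, and they are called normalized values below. The values were taken to be in 1 of these units, both scaled to transcript length. Levels of different genes within a mouse are set side by side on that assumption. The number of reads behind a value is unknown. Differences are given as log2(value + 1) of one group minus the other, with the standard error (SE) over mice, a scale that understates the difference for genes near 0 in young mice. Of 10 kidney genes looked for, Keg1 was in the young against old table and Lrp2 in the 3HB against old table. Keg1 was 1076 to 1637 in young, 704.3 to 962.3 in old and 857.9 to 1297 in 3HB mice, lower in every old than in every young mouse. Lrp2 was 68.59 to 116.6 in young, 87.86 to 105.3 in old and 143.0 to 154.5 in 3HB mice, with all 3HB above all old mice. Both kidney genes were thus present in every mouse. The part of kidney cell content in the immunoglobulin values was not tested. The study's methods paragraph on RNA-seq names muscle, while the sample labels and the rest of the study's text on these libraries name kidney.

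Every member was higher in old than in young kidneys, and in all 31 each old mouse lay above each young mouse. The background over all 389 genes of the table was 65.6% with every old mouse above every young mouse. The median log2 difference, old minus young, was 3.25 over the 23 heavy variable genes, 3.11 over the 5 heavy constant genes and 3.89 over the 3 lambda genes, against 1.14 over all 389 genes and 0.89 over the 319 genes that were not immunoglobulin genes. Since the authors' call on this contrast chose the rows, nothing is read from these shares. No age difference can be told apart from other ways in which the young and 20-month groups may have been handled.

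Among the constant genes, Igha (ENSMUSG00000095079, chr12:113254830-113260236), which encodes the constant region of IgA, the main antibody of mucosal secretions, had the highest level in each of the 9 mice. Its normalized values were 71.97, 9.14 and 20.48 in the young mice and 1277, 1241 and 288.2 in the old mice. The 3HB mice had 940.8, 962.1 and 1177. The old mice thus split into a pair with high values and old mouse 3 with a much lower one, which was still above every young mouse. The means were 33.9 ± 33.5 in young mice, 935.4 ± 561 in old mice and 1027 ± 131 in 3HB mice (SD, n = 3 each), and the log2 difference old minus young was 4.94 (SE 1.09), a 27.6-fold ratio of means. Leaving out 1 mouse moved this difference between 4.28 (without young mouse 2) and 5.71 (without young mouse 1), with 5.65 without old mouse 3.

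Ighm (ENSMUSG00000076617, chr12:113418558-113422730), the constant gene of IgM, the isotype of naive B cells and of early responses, had the smallest age difference of the members on the log2(value + 1) scale. It was 3.28, 1.91 and 1.92 in young mice, 21.07, 7.86 and 14.93 in old mice and 11.49, 19.28 and 18.96 in 3HB mice. Unlike most members it was above 0 in every young mouse, and the old and 3HB mice overlapped. The log2 difference old minus young was 2.14 (SE 0.43), a 6.17-fold ratio of means.

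The 3 IgG genes, which encode isotypes made after class switching and found chiefly in blood and tissue fluid, were near 0 in young kidneys. Ighg2b (ENSMUSG00000076613, chr12:113302965-113307933) was 0.69, 0 and 0.25 in young mice, 28.91, 18.36 and 22.53 in old mice and 18.21, 18.13 and 22.42 in 3HB mice. This was the most even of the IgG genes within each 20-month group, and its log2 difference old minus young was 4.22 (SE 0.28). Ighg2c (ENSMUSG00000076612, chr12:113285325-113288932) was 0.17, 0 and 0.06 in young mice, 6.74, 4.27 and 12.5 in old mice and 8.79, 16.93 and 7.93 in 3HB mice. Its log2 difference, old minus young, was 2.93 (SE 0.40).

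Ighg1 (ENSMUSG00000076614, chr12:113325240-113330523) was the most uneven IgG gene among mice of one age. Its values were 0.48, 0 and 0.13 in young mice, 3.41, 5.44 and 36.94 in old mice and 13.25, 17.86 and 66.89 in 3HB mice. Mouse 3 of the old group, lowest of the old mice for Igha, was the highest of them for Ighg1 and Ighg2c. The log2 difference of Ighg1, old minus young, was 3.11 (SE 0.97), with 2.17 without old mouse 3 and 3.72 without old mouse 1. Among the constant regions, Ighg2b and Ighg2c are 86.4% identical, and Ighg1 and Ighg2b 75.04%.

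**Figure D1:**
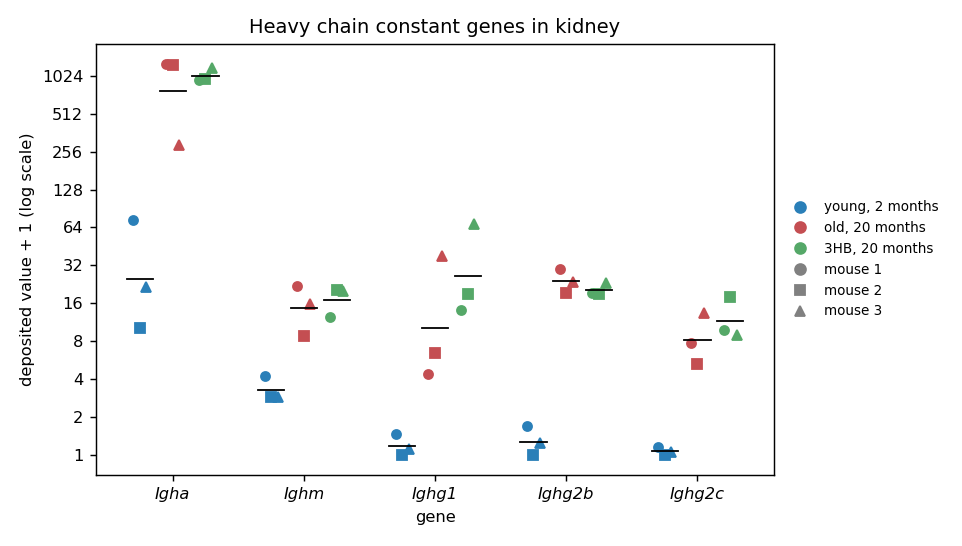
Normalized values (log axis of value + 1) of the 5 heavy constant genes in each young, old and 3HB mouse, with bars at the group means of log2(value + 1). Every 20-month mouse lies above every young mouse for each gene, Igha is highest, and old mouse 3 is the low old point for Igha and the high one for Ighg1.

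As a share of the summed constant genes within a mouse, Igha led everywhere. It made up 94.0%, 82.7% and 89.7% of the constant sum in the young mice, 95.5%, 97.2% and 76.8% in the old mice and 94.8%, 93.0% and 91.0% in the 3HB mice. The share overlapped between all 3 groups. The lowest share belonged to old mouse 3, in which the IgG genes together held 19.2%, against 2.92% and 2.20% in the other old mice. The 3HB mice had IgG shares of 4.06%, 5.12% and 7.52%, between these values.

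The share of Ighm was ordered differently. It held 4.28%, 17.3% and 8.41% of the constant sum in young mice, 1.58%, 0.615% and 3.98% in old mice and 1.16%, 1.86% and 1.47% in 3HB mice. Each 20-month mouse thus had a lower IgM share than each young mouse, by a narrow margin for old mouse 3, although the level of Ighm itself was higher in each of them. The young shares rest on sums of only 76.59, 11.05 and 22.84, against 375.1 to 1337 at 20 months. The 5 genes enter these sums after selection on the age contrast, and IgD, IgE and IgG3 are not included.

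**Figure D2:**
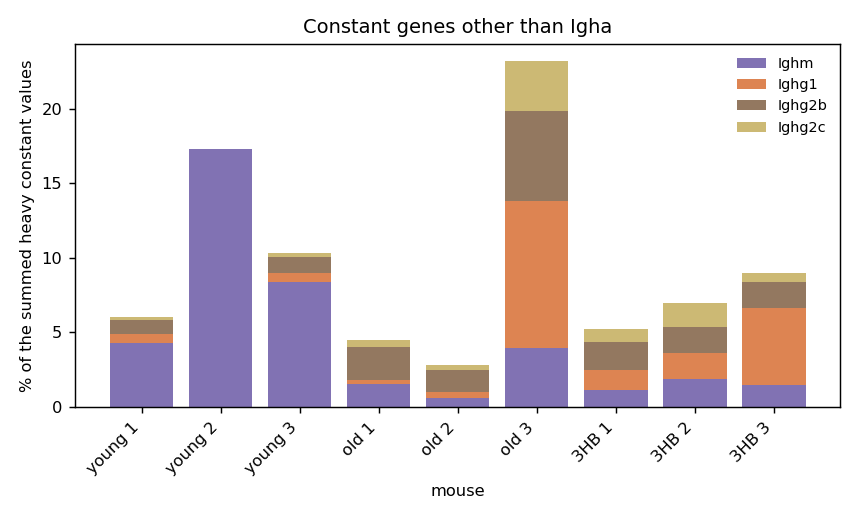
Share of the summed heavy constant values (percent, vertical axis) held by Ighm and the IgG genes in each of the 9 mice, with Igha not drawn. Igha holds the rest of each sum, 76.8% to 97.2%, and the IgG share stands out in old mouse 3 at 19.2%.

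The 23 heavy variable genes summed to 16.96, 4.68 and 14.81 in young mice, 535.5, 293.5 and 215.4 in old mice and 396.9, 516.6 and 597.2 in 3HB mice. Many of the genes were missing from the young sums. Of the 23, 9, 19 and 15 were listed at 0 in young mice 1, 2 and 3, while none of the members was listed at 0 in any of the 6 mice of 20 months. The lowest value above 0 was between 0.27 and 0.35 in the young mice. Across the 6 families the median log2 difference old minus young ran from 2.78 in family 14 to 3.55 in family 1.

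Ighv1-14, Ighv1-82, Ighv14-1, Ighv2-9, Ighv2-9-1 and Ighv5-4 had a listed value of 0 in each young mouse, so they have no fold here. Ighv1-14 was 48.14, 16.13 and 31.27 in old mice and 30.43, 37.43 and 68.89 in 3HB mice. Ighv2-9-1 was 46.59, 11.35 and 7.35 in old mice and 13.08, 28.58 and 25.93 in 3HB mice. In both genes the 20-month groups overlapped and no 20-month mouse was near 0. At the low end Ighv5-4 was 5.93, 6.22 and 4.54 in old mice and 10.66, 6.03 and 8.68 in 3HB mice.

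Among the heavy variable genes Ighv14-3 and Ighv1-5 alone were above 0 in all young mice. Ighv14-3 was 1.47, 3.36 and 10.94 in young mice, 42.14, 22.17 and 20.23 in old mice and 27.09, 68.49 and 68.99 in 3HB mice. Its young mouse 3 stood well above the other two, and its age difference was among the smallest of the variable genes, at 2.46 (SE 0.74) on the log2 scale and 3.08 without young mouse 3. Ighv1-5 was 0.35, 0.69 and 0.41 in young mice, 13.13, 21.85 and 12.5 in old mice and 17.53, 24.84 and 10.98 in 3HB mice. Its log2 difference, old minus young, was 3.47 (SE 0.26).

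Several abundant variable genes were again lowest among old mice in old mouse 3. Ighv1-34 was 1.49, 0.36 and 0 in young mice, 33.58, 32.4 and 8.27 in old mice and 31.87, 34.94 and 44.01 in 3HB mice. Ighv1-19 was 0, 0 and 0.77 in young mice, 45.18, 21.85 and 7.33 in old mice and 23.66, 29.7 and 61.0 in 3HB mice. The same mouse was lowest for Ighv2-5, at 1.96 against 11.13 and 7.41 in the other old mice. Over the 23 genes, old mouse 3 was the lowest of the 3 old mice in 15, old mouse 1 was the highest in 16, and old mouse 3 was the lowest of all 6 mice of 20 months in 13. In the 3HB group, mouse 3 was the highest of those 6 mice in 9 genes.

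**Figure D3:**
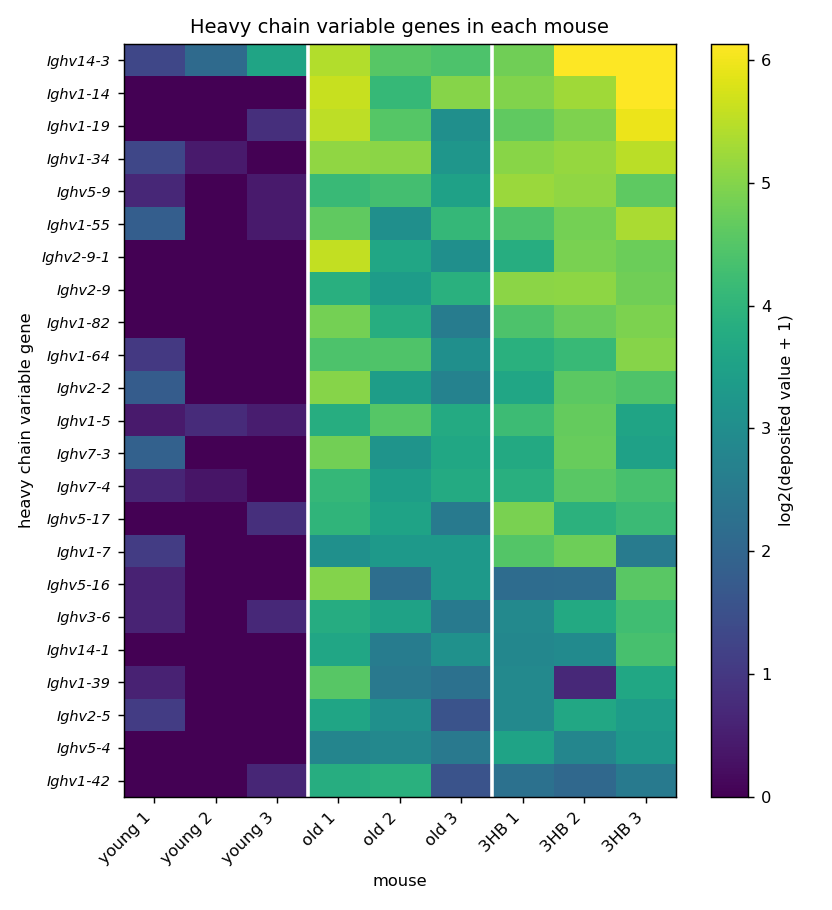
Heat map of log2(value + 1) for the 23 heavy variable genes (rows) in the 9 mice (columns). Young columns are mostly at or near 0, with 9, 19 and 15 genes listed at 0, and all 6 columns of 20-month mice are filled in every row.

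The spread of use over variable genes is described by the share of the leading gene. The leading gene held 16.04% of the heavy variable sum in young mouse 1 (Ighv7-3), and 71.8% and 73.9% in young mice 2 and 3 (both Ighv14-3). In the old mice the leaders were Ighv1-14, Ighv1-34 and Ighv1-14 with 8.99%, 11.0% and 14.5%. In the 3HB mice they were Ighv5-9, Ighv14-3 and Ighv14-3 with 8.99%, 13.3% and 11.6%. The rows were chosen as differing between young and old mice, and the young sums are small, so nothing is read from the leading shares of young against 20-month mice. The part of that choice in the young shares was not tested.

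The inverse Simpson number, the count of equally used genes that would give the same evenness, was 9.80, 1.83 and 1.80 in young mice. It was 17.8, 17.6 and 15.7 in old mice and 17.3, 16.1 and 15.2 in 3HB mice. The old and 3HB mice thus overlapped and lay between 15.2 and 17.8 of a possible 23, while young mice 1 and 3, with sums of 16.96 and 14.81, were far apart. Variable genes outside the table do not enter these numbers.

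Mice of the 3HB group ranked the variable genes more alike than the old mice did. Spearman's rho between pairs of mice, over the 23 genes, was 0.57 to 0.86 within the 3HB group, 0.21 to 0.40 within the old group and -0.07 to 0.27 within the young group. Between old and 3HB mice it was 0.32 to 0.77. These are descriptions over 23 genes of which some may share reads with near copies, and the pairs share mice.

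The lambda genes were the rarest class by sum. Iglv1 (ENSMUSG00000076934, chr16:19085017-19085500), a lambda variable gene, was 0.73, 0 and 0 in young mice, 23.7, 54.25 and 13.34 in old mice and 29.58, 77.14 and 35.17 in 3HB mice. Iglc1 (ENSMUSG00000105906, chr16:19061618-19062071), the constant gene it is usually joined to, was 0, 0 and 0.29 in young mice, 13.09, 43.58 and 5.76 in old mice and 24.55, 47.49 and 9.5 in 3HB mice. In both genes old mouse 2 was the highest and old mouse 3 the lowest of the old mice, and 3HB mouse 2 was the highest of its group. The log2 difference old minus young was 4.49 (SE 0.62) for Iglv1 and 3.89 (SE 0.80) for Iglc1, the latter 3.16 without old mouse 2 and 4.53 without old mouse 3.

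The ratio of Iglv1 to Iglc1 was 1.81, 1.24 and 2.32 in the old mice and 1.20, 1.62 and 3.70 in the 3HB mice, so the variable gene was above its constant partner in every mouse of 20 months. Iglv1 is 97.0% identical to Iglv2 in the variable exon. Iglc2 (ENSMUSG00000076937, chr16:19198396-19200351), another constant gene, was 2.85, 0.72 and 0.79 in young mice, 21.48, 28.81 and 6.32 in old mice and 19.93, 19.28 and 15.19 in 3HB mice. It was the only lambda gene above 0 in every young mouse, and it had the smallest age difference of the 3, at 2.90 (SE 0.73), or 3.51 without old mouse 3. It is 94.3% identical to Iglc3 and 67.5% to Iglc1.

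The listed lambda constant genes stayed a small share of the listed light chain constant RNA at both ages. Iglc3 and Iglc4 were not among the rows and do not enter this share. Igkc, the single kappa constant gene, was 197.05, 36.96 and 58.08 in young mice, 2648, 2743 and 771.4 in old mice and 2126, 2072 and 3188 in 3HB mice. Iglc1 and Iglc2 together made 1.43%, 1.91% and 1.83% of the sum with Igkc in young mice. The share was 1.29%, 2.57% and 1.54% in old mice and 2.05%, 3.12% and 0.769% in 3HB mice, so all 3 groups overlapped.

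**Figure D4:**
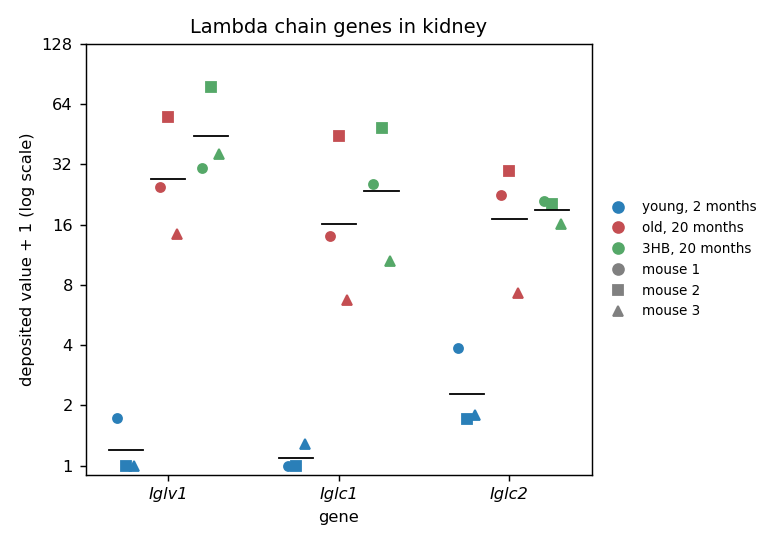
Normalized values (log axis of value + 1) of Iglv1, Iglc1 and Iglc2 in each young, old and 3HB mouse, with bars at the group means of log2(value + 1). All 6 mice of 20 months lie above the young mice for each gene, and the old and 3HB mice overlap.

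The comparison of 3HB with old mice asks whether kidneys of treated mice carried more or less of this RNA at the same age. The 3HB mice stayed far from young levels. In 31 of 31 members each 3HB mouse was above each young mouse, against a background of 61.2% over the table, with median log2 differences, 3HB minus young, of 3.62 over heavy variable, 3.997 over heavy constant and 4.43 over lambda genes. The young mice served in both comparisons with young, and they took part in choosing the rows.

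Against old mice, the 3HB mean of log2(value + 1) was higher in 27 of 31 members and lower in 4. The scale decides the sign for Iglc2, whose mean normalized value was 18.1 in 3HB and 18.9 in old mice. On the log2(value + 1) scale the median difference, 3HB minus old, was 0.51 over the 23 heavy variable genes (20 higher), 0.41 over the 5 heavy constant genes (4 higher) and 0.54 over the 3 lambda genes (3 higher). Over all 389 genes it was 0.05, with 218 higher. Members are measured in the same mice, and near copies may share reads, so the genes are not independent of each other. Without old mouse 3 the medians were 0.15, 0.30 and -0.09, so the lambda median turned negative.

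Most single genes overlapped between old and 3HB mice. All 3HB mice lay above all old mice in 2 of 31 members, Ighv2-9 and Ighv5-9, against a background of 7.20% over the table. All 3HB mice lay below all old mice in 0 of 31, against 6.17%. Both member counts are near or under their background.

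Ighv2-9, whose exon is printed above, was 13.53, 9.47 and 13.78 in old mice and 32.26, 33.2 and 26.91 in 3HB mice. The groups did not overlap, and both were tight, at 12.3 ± 2.42 and 30.8 ± 3.39 (SD, n = 3 each). The log2 difference 3HB minus old was 1.27 (SE 0.19). Ighv2-9 was named for this lack of overlap, which fixes a permutation p at the smallest value that 3 against 3 allows, so the difference is a description with no test. Leaving out any 1 of the 6 mice kept the difference between 1.11 and 1.36.

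Its near copy Ighv2-9-1 did not separate the groups, with a log2 difference of 0.40 (SE 0.83) and exact permutation p = 0.7. The ratio of Ighv2-9 to Ighv2-9-1 was 0.290, 0.834 and 1.87 in the old mice and 2.47, 1.16 and 1.04 in the 3HB mice. These ratios overlapped as well, so the pair was not at a fixed ratio within either group. The difference of Ighv2-9-1 was 1.14 without old mouse 1 and -0.12 without old mouse 3.

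Ighv5-9 (ENSMUSG00000095285, chr12:113661769-113662293) was 0.61, 0 and 0.35 in young mice, 16.66, 18.81 and 10.39 in old mice and 35.7, 33.46 and 23.39 in 3HB mice. Each 3HB mouse lay above each old mouse, with means of 30.9 ± 6.56 and 15.3 ± 4.37 (SD, n = 3 each). The log2 difference 3HB minus old was 0.98 (SE 0.30), again a description because the lack of overlap helped to choose the gene, and leaving out 1 mouse at a time gave 0.75 to 1.17. Its age difference, old minus young, was 3.61 (SE 0.32).

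For the other named variable genes the 3HB and old mice overlapped, and p-values are from the two-sided exact permutation test over the 20 ways to split 6 mice. Ighv14-3 differed by 0.90 (SE 0.54, exact permutation p = 0.2), Ighv1-19 by 0.81 (SE 0.82, p = 0.4) and Ighv1-34 by 0.77 (SE 0.64, p = 0.3) on the log2 scale in the exact permutation test. Without old mouse 3, both Ighv1-19 and Ighv1-34 differed by only 0.15, and Ighv2-5 turned to -0.018. Ighv1-14 differed by 0.55 (SE 0.56), Ighv5-4 by 0.51 (SE 0.24) and Ighv2-5 by 0.57 (SE 0.65), with exact permutation p of 0.5, 0.2 and 0.6. Ighv1-14 was 0.14 without old mouse 2 and 0.21 without 3HB mouse 3. All of these means were higher in the 3HB group. The variable genes with a lower mean in 3HB mice were Ighv1-39, Ighv1-42 and Ighv5-16, at -0.69 (SE 1.14), -0.80 (SE 0.77) and -0.53 (SE 1.13), all with overlapping mice. Without old mouse 1 Ighv1-39 turned to 0.029 and Ighv5-16 to 0.21, without 3HB mouse 2 Ighv1-39 turned to 0.16, and Ighv1-42 was -0.40 without old mouse 2 and -1.56 without old mouse 3.

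No constant gene separated 3HB from old mice. Ighg1 had the widest difference, 1.36 (SE 1.18, exact permutation p = 0.3), with 3HB means of 32.7 ± 29.7 against 15.3 ± 18.8 (SD, n = 3 each) and values of 0.68 without 3HB mouse 3, 0.75 without old mouse 1 and 2.30 without old mouse 3. Ighg2b was the only one with a lower 3HB mean, at -0.22 (SE 0.21, exact permutation p = 0.2), or -0.059 without old mouse 1. Ighg2c differed by 0.50 (SE 0.50), Igha by 0.41 (SE 0.72) and Ighm by 0.23 (SE 0.45), with exact permutation p of 0.4, 1.0 and 0.7. Ighg2c was 0.18 without old mouse 2, 0.19 without 3HB mouse 2 and 0.86 without old mouse 3. The sign of Igha depended on old mouse 3 and that of Ighm on old mouse 2, without which the differences were -0.30 and -0.13.

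The lambda genes likewise overlapped. Iglv1 differed by 0.71 (SE 0.70), Iglc1 by 0.54 (SE 1.02) and Iglc2 by 0.16 (SE 0.63), with exact permutation p of 0.4, 0.7 and 1.0. Without old mouse 3, Iglc1 turned to -0.09 and Iglc2 to -0.45, and without old mouse 2 Iglc1 was 1.27. Iglv1 was 0.26 without old mouse 3 and 1.23 without old mouse 2. With 3 mice a group these tests could not go below 0.1, and the p-values are not adjusted over the genes.

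**Figure D5:**
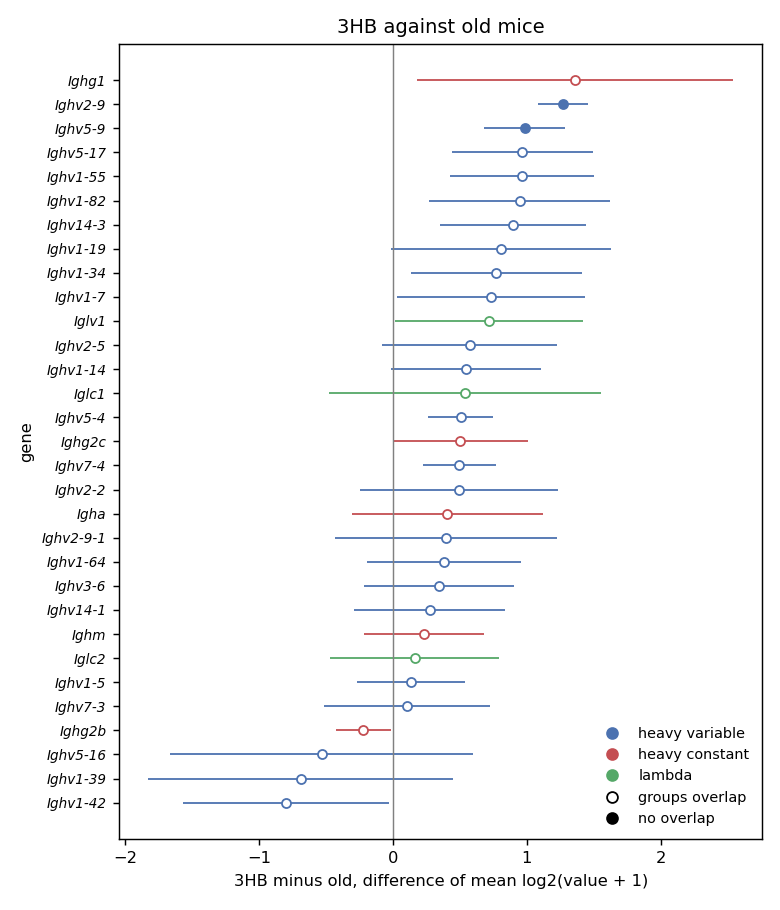
Log2 difference, 3HB minus old (horizontal axis), of each of the 31 members, with bars of 1 SE over mice. Of the 31 points 27 lie right of 0, most bars cross 0, and Ighv2-9 at 1.27 and Ighv5-9 at 0.98 are the genes without overlap between the groups.

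Genes that mark plasma cells and B cells were listed beside these chains. Of 17 plasma cell and B cell markers looked for, 6 were in the table (Jchain, Mzb1, Cd79a, Irf4, Tnfrsf17 and Pou2af1), and each was higher in all old than in all young mice, beside the 65.6% of the whole table. These rows entered the table through the same contrast, so the count is a description. Their summed level was 1.56 to 12.75 in young mice, 68.74 to 334.4 in old mice and 215.7 to 234.4 in 3HB mice, with Mzb1 listed at 0 in young mouse 1 and Tnfrsf17 in all young mice. Most of that sum was Jchain, the joining chain of polymeric IgA and IgM, at 12.28, 0.83 and 4.89 in young mice, 302.2, 317.4 and 60.43 in old mice and 201.0, 202.9 and 218.0 in 3HB mice. Old mouse 3 was again lowest of the old mice, as for Igha, and the part of cell number in any of these results was not tested.

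Pigr, the epithelial receptor that carries polymeric IgA and IgM across a cell layer, was ordered differently among the old mice. It was 23.76, 21.41 and 52.7 in young mice, 180.3, 220.8 and 549.0 in old mice and 138.1, 293.5 and 132.6 in 3HB mice. Old mouse 3, low in Igha and Jchain, had the highest Pigr of the 9 mice. Of the other lists looked for in this table, the T cell list had 1 of 9 genes (Cd8a, 0.47 to 5.37 in young and 0.33 to 0.94 at 20 months), and the myeloid list had 1 of 7 (Lyz2, 7.54 to 8.69 in young and 22.92 to 72.01 at 20 months). None of the 5 class switch and somatic mutation genes was a row of either table.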

How the data were processed

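RNA from kidney was sequenced as paired-end reads of 150 bases in 9 libraries, and the submitters' processing notes name CASAVA, HISAT2 and StringTie with the GRCm38 build and no versions. The deposited values have unit signal here: normalized abundances with 2 decimals, made by the authors, with TPM or FPKM not given in the sources used here, so depth is unknown and no count test was possible. Each of the 2 deposited tables holds only genes the authors called, with their fold changes and p-values, which were not used.

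Values were read as deposited, with no filter on low values. Differences of group means of log2(value + 1) were computed in Python 3.11.15 (numpy 2.4.6, pandas 2.3.3), with exact permutation tests for 3HB against old. The code was tested on simulated data. Genes named were all constant and lambda genes and, of the variable genes, those with the highest means, the widest and narrowest age differences, leaders in a 20-month mouse and those without overlap between 3HB and old mice. Other variable genes were named after their values were seen, among them Ighv1-5, Ighv1-39, Ighv1-42, Ighv5-16 and Ighv7-3. Members and lists were chosen with earlier results of these data known. The labels number 3 samples a group without naming the animals, so p-values measure the spread between samples. Identity was computed by edlib 1.3.9.post1 on GENCODE exons (release 21). Promoter sequence of the members was not analysed here. Alternatives were a pseudocount of 0.1, a filter (highest group mean of at least 1), group medians, each mouse left out and a replicate block.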

Additional observations from a re-analysis of the deposited data

How the results depend on the processing

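With a pseudocount of 0.1 the median log2 differences, old minus young, were 5.501 for heavy variable, 5.24 for heavy constant and 6.57 for lambda genes, since the genes near 0 in young mice are spread further apart by construction. Leaving out 1 mouse gave 2.84 to 3.58, 2.57 to 3.72 and 3.16 to 4.53 for these classes. For 3HB minus old it gave 0.15 to 0.90, 0.18 to 0.53 and -0.092 to 1.23, the last minimum without old mouse 3. The count of members with no overlap between old and 3HB mice went from 2 to between 4 and 10, since fewer mice overlap less by construction (10 without old mouse 1, 7 without old mouse 3). The counts of members with all old or all 3HB mice above all young mice stayed at 31. The share of Igha ranged from 86.2% to 91.8% in young mice, 86.2% to 96.3% in old mice and 92.0% to 93.9% in 3HB mice, and that of the leading variable gene from 43.9% to 72.8%, 10.0% to 12.8% and 10.3% to 12.4%. Of 238 settings of the 17 named genes, 6 changed sign, all for 3HB minus old: Ighm without old mouse 2, and Iglc2, Igha, Ighv2-9-1, Ighv2-5 and Iglc1 without old mouse 3. Leaving out each mouse for the other 14 variable genes, an alternative chosen after seeing the data, changed the sign of 3HB minus old in 12 of 84 settings and in 8 genes. The cause was not tested.

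The deviations of same-numbered mice had correlations of -0.15 to 0.35 between 3HB and old, and -0.10 to 0.11 between old and young. Those of other-numbered mice were -0.51 to 0.37 and -0.16 to 0.21. With 3 mice a group these values cannot show whether the numbers pair samples. The labels give no pairing, so the samples were treated as unpaired. With a replicate block the medians were 3.25, 3.11 and 3.89 for age and 0.51, 0.41 and 0.54 for 3HB minus old, equal to those without it by construction, since each number occurs once in each group. Depth is unknown, so a value of 0 in a young mouse could not be given a limit, and near copies of variable genes may exchange reads.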
